A study of Mus musculus with 6 samples.

Results

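The genes described here encode enzymes of heme synthesis and heme breakdown in the mouse kidney. They were taken by gene symbol, and all 9 were found among the 24422 genes of the count tables: 7 enzymes of synthesis (Alas1, Alad, Uros, Urod, Cpox, Ppox and Fech) and 2 enzymes of breakdown (Hmox1 and Blvrb). Poly-A RNA of whole kidneys was sequenced at postnatal day 13 in 3 Control and 3 TfR1 knockout libraries, all from C57BL/6 mice on an iron sufficient diet (220 ppm iron). Control kidneys were labelled wild type. Knockout kidneys were labelled Tfr1f/f;SixCre, which means that the floxed gene of transferrin receptor 1 (Tfrc) was the target of the Six2Cre recombinase. Six2 marks the progenitors of the nephron, so that collecting duct, stroma, vessels and immune cells lie outside the targeted lineage, and the study describes tubule cells that escaped the deletion.

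Heme is an iron-containing ring that serves cytochromes, catalase and hemoglobin. Its synthesis begins in the mitochondrion with Alas1, the rate-limiting enzyme outside red cells, moves to the cytosol for steps that include Alad, Uros and Urod, and ends in the mitochondrion with Cpox, Ppox and Fech, the last of which inserts iron. Heme oxygenase (inducible Hmox1, constitutive Hmox2) opens the ring and releases iron, and the biliverdin reductases Blvra and Blvrb act on the product. Kidney tubules both make heme for their mitochondria and, like macrophages, break it down. The comparison asked how transcripts of this pathway stood in kidneys whose nephron lineage was targeted for loss of iron uptake through transferrin.

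None of the 9 enzymes passed the test between TfR1 knockout and Control kidneys (DESeq2, adjusted p under 0.05 over 16509 genes tested). Of all genes tested, 14.9% passed (7.74% higher and 7.18% lower). With only 9 members, 0 is not read as a departure from that share. All 9 entered that test. At an unadjusted p under 0.05 there were 3 members (Alas1, Uros and Ppox) by DESeq2, against 27.3% of all genes. By edgeR there were 2 and by limma-voom 3, and the share of all genes at that cutoff is not given here for these tools. Neither edgeR nor limma-voom called a member after adjustment, where edgeR called 6.02% of all genes it tested (3.22% higher and 2.8% lower). Over all genes limma-voom called 485 higher and 456 lower. The median log2 fold change of the members was -0.22, beside 0.0071 for all genes tested, with 4 members above 0 and 5 below. It was -0.067 without TfR1 knockout replicate 2, -0.12 without Control replicate 2, -0.14 without Control replicate 1 and -0.31 with total-count scaling. For 6 members the 95% interval of the change lay within 2-fold in either direction. For Alas1, Uros and Hmox1 it reached beyond 2-fold, and for Alas1, Uros and Ppox it did not include 0 before adjustment. A failed test does not show that the groups were equal.

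Total counts per library ran from 16591156 to 22898008, and every member had between 53 and 3051 counts in each library. The calls over all genes split into 1277 with knockout higher and 1186 with knockout lower, or 996 and 1407 with total-count scaling, under which the median log2 fold change was -0.0969. Control replicate 3 and TfR1 knockout replicate 2 stood apart from their groups. For 87.5% and 80.5% of all genes tested they were the highest or lowest of the 3 libraries. The same share was 51.3% and 61.5% for Control replicates 1 and 2, and 72.6% and 47.1% for TfR1 knockout replicates 1 and 3. Control replicate 3 was at the top or bottom of its group for 9 of 9 members, and TfR1 knockout replicate 2 likewise for 9 of 9. Values of single libraries are listed in the order of replicates 1 to 3. The targeted gene Tfrc (transferrin receptor 1) had 5534, 6485 and 3667 normalized counts in Control and 6976, 4045 and 5898 in knockout libraries, so that the groups overlapped (log2 fold change 0.11, SE 0.29, DESeq2 adjusted p = 0.853). The counts cover the whole gene and the deletion removes part of it, and the group labels were not checked by this value. No kidney marker listed was at 0 in any library. Of 20 proximal tubule markers, 2 were higher and 5 lower (2 and 2 by edgeR), and of 10 thick ascending limb markers, 8 were lower (7 by edgeR). Of all genes tested, 7.74% were higher and 7.18% lower by DESeq2, and 3.22% and 2.8% by edgeR. In whole kidney RNA, fewer cells of a type and less RNA per cell cannot be told apart.

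**Figure D1:**
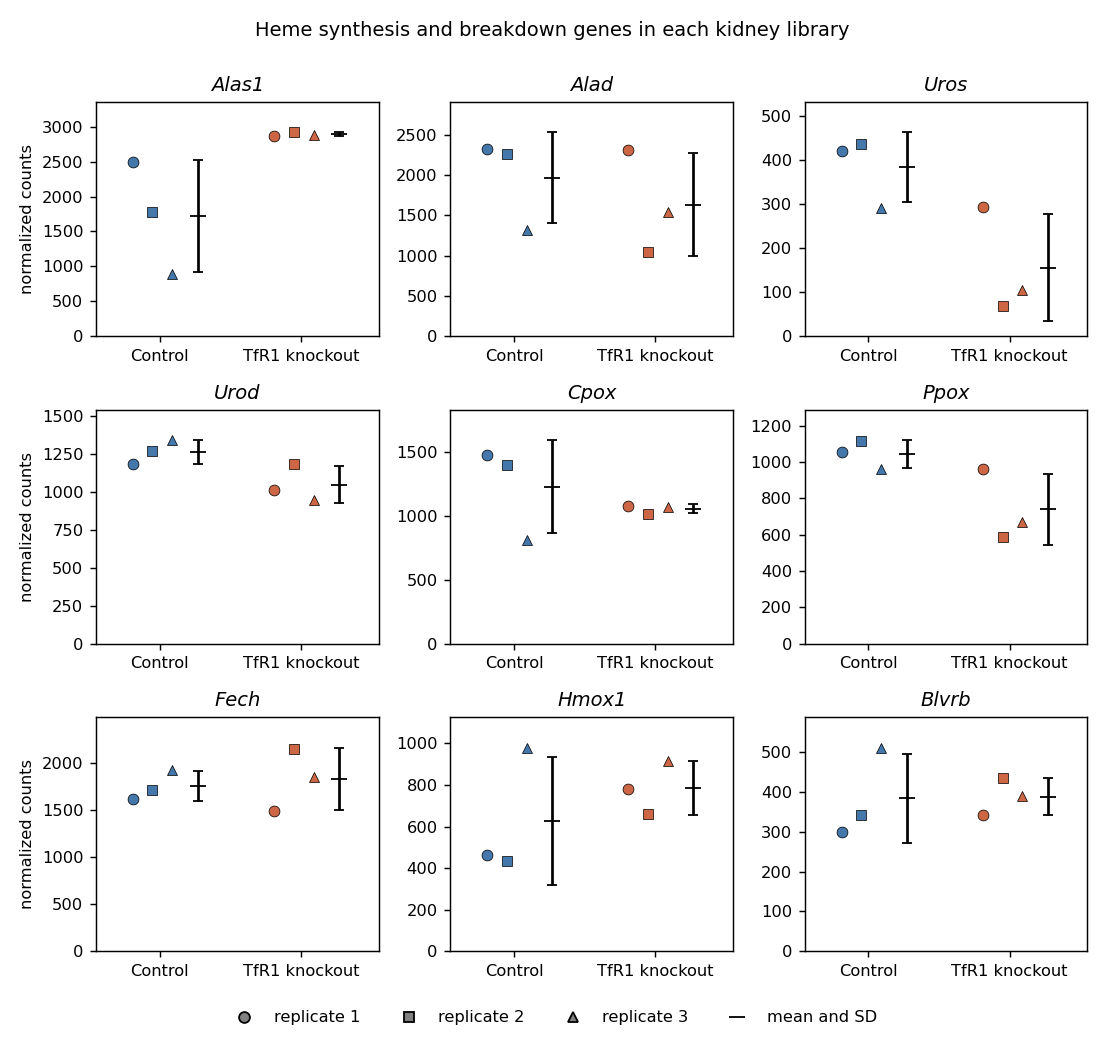
Normalized counts (y axis, from 0) of the 9 heme synthesis and breakdown genes in each of the 3 Control and 3 TfR1 knockout libraries, with the group mean and SD in black. The 3 knockout values of Alas1 sit at 2863 to 2920 above all Control values, while in Hmox1 the highest value of all belongs to Control replicate 3.

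Alas1, which makes aminolevulinate and sets the pace of heme synthesis, had the largest positive change of the 9. Its normalized counts (counts scaled to a common depth) were 2488, 1774 and 896 in Control and 2863, 2920 and 2886 in knockout libraries. The groups did not overlap, and Control values were widely spread while knockout values were nearly the same. The mean was 1719 ± 798 in Control and 2890 ± 28.5 in knockout kidneys (mean ± SD, n = 3 each), a 1.68-fold difference that did not pass (log2 fold change 0.75, SE 0.34, 95% interval 0.074 to 1.42, DESeq2 adjusted p = 0.131; edgeR adjusted p = 0.205). The coefficient of variation was 46.4% in Control and 0.985% in knockout libraries. The knockout figure is smaller than the 1.86% that counting error alone gives a single library, and 0.265% of genes with a mean over 100 had one as small. Both features rest on the scaling: in RPKM (counts per kilobase of exon, scaled to the library total), the values were 30.6, 21.3 and 11.6 in Control and 34.5, 30.3 and 35.4 in knockout libraries, and TfR1 knockout replicate 2 then lay just under Control replicate 1. Without Control replicate 1 the gene was called higher (log2 fold change 1.11, adjusted p = 0.0151), and without Control replicate 3 the change was 0.44 (adjusted p = 0.15). In mm9, the build of the counts, Alas1 spans 106135786 to 106150457 on chromosome 9, with 2.65% of its exon bases shared with 4930500F10Rik on the other strand.

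The largest negative change of the 9 was that of a cytosolic enzyme, Uros. Uros, which closes the ring into uroporphyrinogen, had 421, 437 and 292 normalized counts in Control replicates 1 to 3 and 293, 67.8 and 105 in knockout libraries. TfR1 knockout replicate 1 stood level with Control replicate 3, and the other two knockout libraries lay far below every Control library. In RPKM the same libraries did not overlap (4.57 to 6.34 in Control, 0.848 to 4.26 in knockout). The means were 383 ± 79.6 and 155 ± 121 (n = 3 each), and the fitted knockout level was 0.406 times that of Control, a change that did not pass (log2 fold change -1.30, SE 0.50, 95% interval -2.28 to -0.32, DESeq2 adjusted p = 0.0579; edgeR adjusted p = 0.164). Without TfR1 knockout replicate 1 Uros was called lower (log2 fold change -2.14, adjusted p = 1.25e-08), whereas without TfR1 knockout replicate 2 the change was -0.94 (adjusted p = 0.177). Uros lies on chromosome 7 (140877926 to 140901755) and shares no exon bases with another annotated gene.

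Alad and Urod, the first and last cytosolic steps, differed less. Alad, which joins aminolevulinate into porphobilinogen, had 2323, 2263 and 1320 normalized counts in Control and 2314, 1041 and 1538 in knockout libraries. The groups overlapped across nearly their whole range (log2 fold change -0.27, SE 0.35, DESeq2 adjusted p = 0.662), and the change was -0.61 when TfR1 knockout replicate 1 was left out and -0.029 when TfR1 knockout replicate 2 was. Urod, which trims uroporphyrinogen to coproporphyrinogen, had 1182, 1266 and 1338 normalized counts in Control and 1011, 1180 and 945 in knockout libraries. Its groups did not overlap, but only just, since knockout replicate 2 stood at 1180 beside 1182 in Control replicate 1 (log2 fold change -0.27, SE 0.17, 95% interval -0.60 to 0.053, DESeq2 adjusted p = 0.285). Both genes lie on chromosome 4, Alad at 62170203 to 62180952 and Urod at 116662570 to 116667018.

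None of the mitochondrial enzymes that finish synthesis was called, and their fold changes had both signs. Cpox, which oxidizes coproporphyrinogen, had 1473, 1399 and 807 normalized counts in Control and 1078, 1015 and 1071 in knockout libraries, so that all knockout libraries lay between the low Control replicate 3 and the other two (log2 fold change -0.22, SE 0.26, DESeq2 adjusted p = 0.634). Without Control replicate 3 it was called lower (log2 fold change -0.45, adjusted p = 0.0277). Ppox, the next enzyme, had 1057, 1115 and 964 normalized counts in Control and 962, 590 and 670 in knockout libraries. Its groups did not overlap, with knockout replicate 1 at 962 just under Control replicate 3 at 964, and the change did not pass (log2 fold change -0.50, SE 0.24, 95% interval -0.96 to -0.036, DESeq2 adjusted p = 0.144; edgeR adjusted p = 0.167).

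Without TfR1 knockout replicate 1, Ppox was called lower (log2 fold change -0.73, adjusted p = 0.00221). Of its exon bases 17.5% are shared with B4galt3, a galactosyltransferase gene on the opposite strand that was not called (log2 fold change 0.16, DESeq2 adjusted p = 0.623). Whether the counting used strand is not given in the sources used here, so that reads in the shared part could not be assigned. Fech, the ferrochelatase that places iron in the ring, had 1616, 1716 and 1926 normalized counts in Control and 1493, 2152 and 1852 in knockout libraries. Knockout values lay on both sides of the Control values, and the difference was close to 0 (log2 fold change 0.064, SE 0.20, 95% interval -0.33 to 0.45, DESeq2 adjusted p = 0.873). Its sign changed when TfR1 knockout replicate 2 was left out (-0.063). Cpox spans 58670321 to 58680504 on chromosome 16, Ppox 173206121 to 173211317 on chromosome 1 and Fech 64616204 to 64648720 on chromosome 18.

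**Figure D2:**
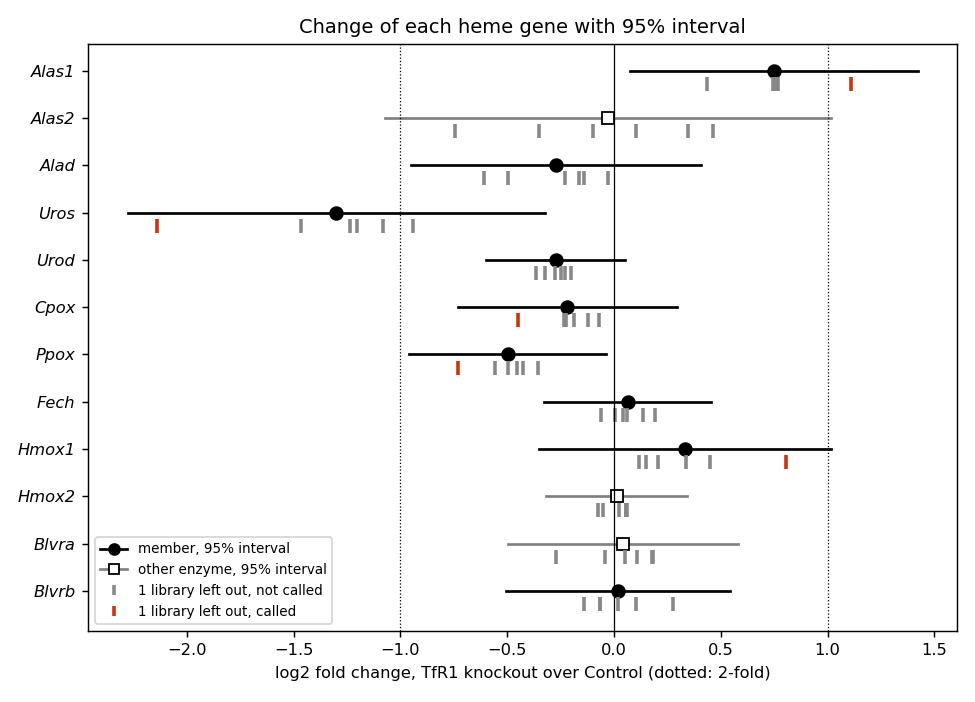
Log2 fold change of TfR1 knockout over Control (x axis) for the 9 members and 3 further enzymes, in pathway order, with the 95% interval; ticks under each gene give the 6 values obtained when 1 library is left out, red where the gene is then called. Red ticks occur for Alas1, Uros, Cpox, Ppox and Hmox1. Among the members the intervals of Alas1, Uros and Hmox1 reach past 2-fold, and among the further enzymes that of Alas2 (-1.07 to 1.02).

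Whether Hmox1 was called turned on a single Control library. Hmox1, the inducible heme oxygenase, had 463, 434 and 980 normalized counts in Control and 782, 659 and 918 in knockout libraries. Every knockout library was above Control replicates 1 and 2, and Control replicate 3 was above every knockout library. The means were 625 ± 307 and 786 ± 129 (n = 3 each; log2 fold change 0.33, SE 0.35, 95% interval -0.35 to 1.01, DESeq2 adjusted p = 0.58; edgeR adjusted p = 0.568). Without Control replicate 3 Hmox1 was called higher (log2 fold change 0.81, adjusted p = 0.0044), while without any other library it was not (adjusted p = 0.566 to 0.91). Hmox1 lies on chromosome 8 (77617490 to 77624495).

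Macrophages are a known site of Hmox1 expression, and the levels of their markers are given here beside those of Hmox1. The summed normalized counts of 19 macrophage markers were 3607, 3663 and 6305 in Control and 12829, 10203 and 10888 in knockout libraries. Control replicate 3 was thus the highest Control library both for the markers and for Hmox1, but for the markers it stayed below every knockout library. In all, 13 of the 19 were higher and 0 lower in knockout kidneys, beside 7.74% and 7.18% of all genes. By edgeR 7 were higher, beside 3.22% of all genes. The markers had a median log2 fold change of 1.46, and no marker of the list was at 0. Their part in the Hmox1 values was not tested. Blvrb, a biliverdin and flavin reductase that is abundant in red cells, had 299, 342 and 511 normalized counts in Control and 341, 436 and 389 in knockout libraries. Control replicate 3 was again the highest and the groups overlapped (log2 fold change 0.018, SE 0.27, 95% interval -0.51 to 0.54, DESeq2 adjusted p = 0.977). Its sign turned negative under 3 other scalings. It spans 28232997 to 28251163 on chromosome 7.

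The groups of 3 members did not overlap in normalized counts. Knockout libraries were the higher ones for Alas1 (1 of 9, beside 16.9% of all genes tested) and the lower ones for Urod and Ppox (2 of 9, beside 16.9%). Together this is 33.3% of the members, beside 33.7% of all genes tested.

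**Figure D3:**
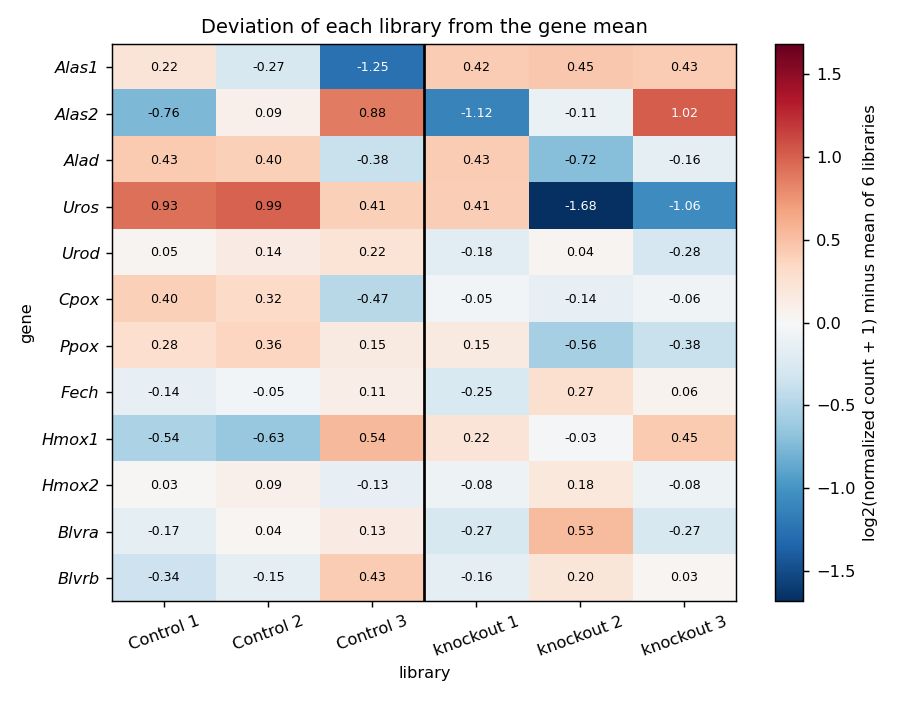
Deviation of each library (x axis) from the mean of all 6 libraries, as log2(normalized count + 1), for 12 heme enzymes (y axis, in pathway order); red is above and blue below the gene's mean. The deepest blue lies at Uros in TfR1 knockout replicate 2 (-1.68), Alas1 is lowest in Control replicate 3 (-1.25), and Alas2 varies within both groups.

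Of the related enzymes outside the 9, Alas2, Hmox2 and Blvra did not pass either. Alas2, the erythroid counterpart of Alas1, had 1571, 2820 and 4879 normalized counts in Control and 1222, 2463 and 5399 in knockout libraries. It spanned a more than 3-fold range within both groups and the group means lay close together (log2 fold change -0.029, SE 0.53, DESeq2 adjusted p = 0.982).

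Alas2 shares 12.9% of its exon bases with Apex2. The globin genes Hba-a1, Hba-a2, Hbb-b1, Hbb-b2, Hbb-bs and Hbb-bt are listed at 0 in all 6 libraries, so that the blood content could not be read from them. Of the 9 erythroid markers that could be tested, 1 was lower and 0 higher, beside 7.18% and 7.74% of all genes. The lower one was Slc4a1, which intercalated cells of the kidney also make. It fell by 1.75 on the log2 scale (DESeq2 adjusted p = 2.49e-04). The summed erythroid level ran from 3134 to 6680 in Control and from 1815 to 6446 in knockout libraries. That sum includes Alas2 itself and Slc4a1, and is not a measure of red cells apart from them. Alas2 alone gave 4879 of the 6680 in Control replicate 3 and 5399 of the 6446 in TfR1 knockout replicate 3.

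Among the breakdown enzymes, Hmox2 varied little between libraries (865 to 1009 normalized counts in Control, 896 to 1073 in knockout; log2 fold change 0.012, SE 0.17, DESeq2 adjusted p = 0.975). It shares 40.2% of its exon bases with 5730403B10Rik on the other strand. Blvra, the main biliverdin reductase, ran from 801 to 986 in Control and from 744 to 1301 in knockout libraries, with TfR1 knockout replicate 2 alone above the rest (log2 fold change 0.042, SE 0.27, DESeq2 adjusted p = 0.946). The ratio of Hmox1 to Hmox2 counts within a library, which does not depend on scaling, was 0.48, 0.43 and 1.13 in Control and 0.872, 0.614 and 1.02 in knockout libraries. The ratio of Hmox1 to Alas1, the first enzymes of breakdown and synthesis, was 0.186, 0.244 and 1.09 in Control and 0.273, 0.226 and 0.318 in knockout libraries. Control replicate 3 stood alone in the second ratio, and the other 5 libraries lay together. The ratio of Fech to Alas1 was 0.649, 0.967 and 2.15 in Control and 0.521, 0.737 and 0.642 in knockout libraries, again with Control replicate 3 far above. The ratio of Blvrb to Blvra ran from 0.37 to 0.519 in Control and from 0.335 to 0.521 in knockout libraries.

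Levels can be compared between genes only per length, here as RPKM. On that scale Alas2 led in Control kidneys (69.7 ± 40.3, n = 3), followed by Alad (56.0 ± 14.4), Fech (32.4 ± 4.13), Urod (26.1 ± 2.47), Hmox2 (22.8 ± 0.886), Alas1 (21.2 ± 9.47), Cpox (20.5 ± 5.52), Blvra (19.8 ± 2.63), Hmox1 (15.7 ± 8.39), Blvrb (14.7 ± 4.88), Ppox (12.4 ± 0.42) and Uros (5.71 ± 0.991). Of the 11 pairs of neighbours in this order, 4 had Control values that did not overlap: Alad above Fech, Fech above Urod, Urod above Hmox2 and Ppox above Uros. Between Hmox2 and Ppox, each gene overlapped with its neighbours in the order. In knockout kidneys Alas1 had a level of 33.4 ± 2.74 and had rank 3, against rank 6 in Control, and Uros had a level of 2.22 (0.848 to 4.26) and stayed last. Uros was therefore the least abundant of these 12 enzymes in both groups. With the length of the longest isoform in place of all exons, Urod had rank 3 in Control (45.5), Blvra rank 4 (33.2) and Fech rank 5 (32.4), so that the order of Fech and Urod was reversed, and Uros was still last.

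**Figure D4:**
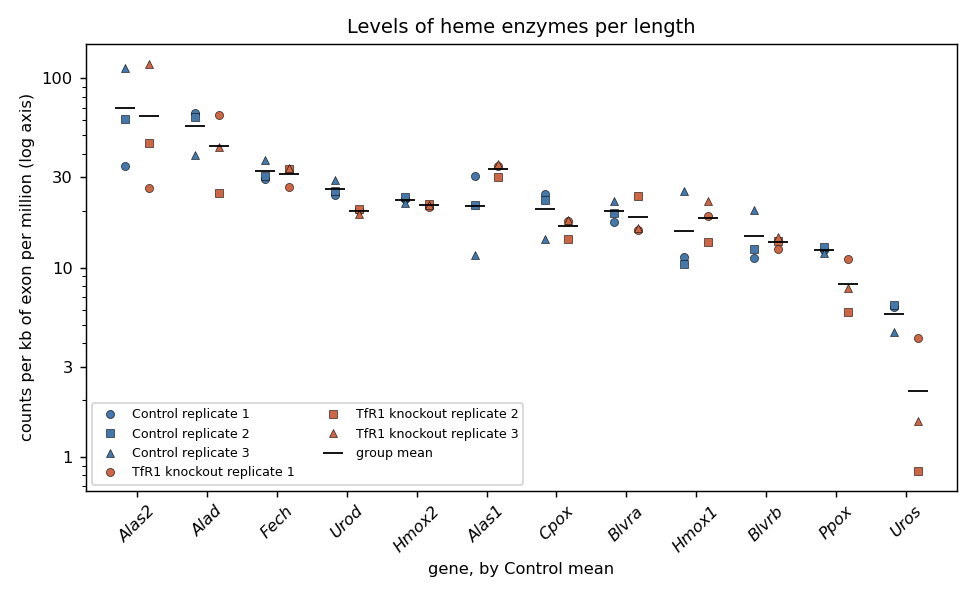
RPKM, counts per kilobase of exon scaled to the library total (y axis, log scale) for 12 heme enzymes, ordered by their Control mean (x axis), with 1 symbol per library and a bar at each group mean. Alas2 and Alad are at the top, Uros at the bottom, and the knockout mean of Alas1 (33.4) stands above its Control mean (21.2) while its libraries overlap.

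The sequences before the start sites were examined for what the members share. RefSeq promoter windows (GRCm38.p6, 250 bases before to 50 after a start) were found for 7 of the 9 members, and Fech and Hmox1 had none. The 5-letter core of the hypoxia response element, ACGTG on either strand, was in a window of Alad, Uros, Urod, Cpox and Blvrb (5 of 7, 71.4%), beside 21.8% of all 27025 genes with a window. A gene with more windows had more chances of a match. The 7 members had 11 windows, and 19.6% of all 32851 windows held the core. In Alad, Uros and Urod it formed the palindrome CACGTG (42.9% of the 7, beside 8.09% of all genes), which basic helix-loop-helix factors of other families also bind; the palindrome was searched after the first hits were seen. The 30 bases around each site follow, 5′ to 3′ on the strand of the gene, with the site in capitals.
Alad, chr4:62520151-62520180, minus strand: gctccgaatgccCACGTGgaccccctcggg
Alad, chr4:62519920-62519949, minus strand: ccgccccgccccCACGTGggcttgcgcttt
Uros, chr7:133709516-133709545, minus strand: CACGTGtgctttctcacctcgtccacgatt
Urod, chr4:116994445-116994474, minus strand: cactggatcggtCACGTGgttctcaatatg
Cpox, chr16:58670090-58670119, plus strand: aatccaaggtgtACGTGactaaagcgccta
Blvrb, chr7:27452283-27452312, plus strand: cttttcatctcaACGTGaactgtgtgcttt

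Counted from the start of transcription, the sites begin at -105 and -28 in Alad (2 starts), -250 in Uros, -49 in Urod, -106 in Cpox and -123 in Blvrb. Uros and Blvrb each have another start whose window lacks the hypoxia core. The 3 genes with the palindrome had log2 fold changes of -0.27 (Alad), -1.30 (Uros) and -0.27 (Urod), none of them called. The other members with a window stood at 0.75 (Alas1), -0.22 (Cpox), -0.50 (Ppox) and 0.018 (Blvrb), also uncalled. Any part of the sites in these values was not tested. The core of the antioxidant response element, TGANNNNGC, was in a window of Uros, Cpox and Blvrb (42.9% of members, beside 45% of all genes), and TGCGCA, part of the nuclear respiratory factor element, in that of Cpox (14.3%, beside 8.79%). These are matches of letters in a window and not measured binding.

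Genes around the pathway were described, here and below, from lists chosen by function. The lists were chosen with earlier results of these data known, so that their counts of called genes carry no test beside the shares of all genes. Of 11 measured genes of heme transport and scavenging, 2 were higher and 0 lower (1 and 0 by edgeR), beside 7.74% and 7.18% of all genes. Hp, haptoglobin, which binds free hemoglobin, had 115, 88.2 and 138 normalized counts in Control and 480.3, 594 and 656 in knockout libraries. Every knockout library was more than 3 times the highest Control library, and Hp rose in both tests (log2 fold change 2.34, SE 0.25, DESeq2 adjusted p = 5.95e-18; edgeR adjusted p = 0.00393). Cd163, the macrophage receptor for the haptoglobin-hemoglobin complex, had 76.7, 43.6 and 187 in Control and 253, 532 and 508 in knockout libraries, and rose by DESeq2 (log2 fold change 2.07, SE 0.52, adjusted p = 0.00116) but not by edgeR (adjusted p = 0.0686). Its log2 fold change was 2.84 without Control replicate 3. Cd163 is also one of the macrophage markers counted above. Hpx, hemopexin, which binds free heme, had 14.0 to 52.7 normalized counts in all libraries and was not called (named after its values were seen).

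Of 12 genes that sense heme or regulate the pathway, 3 were higher and 0 lower, beside 7.74% and 7.18% of all genes, and edgeR called 1 of them, beside 3.22% called higher of all genes. Maff, a small Maf protein that pairs with Bach1 and Nrf2 at the Hmox1 gene, had 97.3, 112 and 111 normalized counts in Control and 432, 851 and 329 in knockout libraries. It rose in both tests (log2 fold change 2.33, SE 0.37, DESeq2 adjusted p = 3.37e-08; edgeR adjusted p = 0.0159). Mafk rose by DESeq2 (log2 fold change 1.19, SE 0.37, adjusted p = 0.0132), with TfR1 knockout replicate 2 at 1996 beside 754 and 920.4 in the other two, and the value was 0.65 without that library (adjusted p = 0.0264). The Mafk call was lost without Control replicate 1 (adjusted p = 0.0776) or Control replicate 3 (adjusted p = 0.0559). Nfe2l2, the gene of Nrf2, rose by 0.50 on the log2 scale (SE 0.18, DESeq2 adjusted p = 0.0324). edgeR called neither Mafk nor Nfe2l2 (adjusted p = 0.0909 and 0.0973), and the Nfe2l2 call was lost when any library but TfR1 knockout replicate 1 was left out (adjusted p up to 0.164). Bach1, the heme-binding repressor of Hmox1, was not called (log2 fold change 0.55, DESeq2 adjusted p = 0.174). The heme-regulated kinase Eif2ak1 was not called either (log2 fold change 0.020, DESeq2 adjusted p = 0.957); both were named after their values were seen. None of the 3 genes of heme a synthesis and heme attachment to cytochrome c (Cox10, Cox15 and Hccs) was called by DESeq2 or edgeR.

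Hmox1 belongs with stress-induced genes that Nrf2 and Bach1 are known to control. In a list of 10 others, 5 were higher and 0 lower by DESeq2, beside 7.74% and 7.18% of all genes, and edgeR called 4, beside 3.22% of all genes. The median log2 fold change of the list was 0.83, and 0.42 without TfR1 knockout replicate 2. Txnrd1, thioredoxin reductase, had 2426, 2456 and 1677 normalized counts in Control and 4188, 4747 and 4295 in knockout libraries (log2 fold change 1.01, SE 0.21, DESeq2 adjusted p = 3.39e-05). Nqo1, a quinone reductase, had 431, 444 and 348 in Control and 747, 1998 and 1276 in knockout libraries (log2 fold change 1.72, SE 0.35, DESeq2 adjusted p = 3.76e-05). Control replicate 3 was the lowest Control library for both, the reverse of its place for Hmox1. Srxn1, sulfiredoxin, and Slc7a11, the cystine importer, rose with log2 fold changes of 1.24 and 2.35 (DESeq2 adjusted p = 5.46e-04 and 4.40e-04), and G6pdx, the fifth, named after its value was seen, by 0.52. edgeR did not call G6pdx (adjusted p = 0.0757). The Slc7a11 call was lost with limma-voom (adjusted p = 0.0621), and its log2 fold change was 1.71 without TfR1 knockout replicate 2. Control replicate 3 was the lowest Control library for Srxn1 as well, but the middle one for G6pdx. For Slc7a11 it was the highest, as for Hmox1 (16.5, 16.4 and 26.9 normalized counts in Control). The glutathione synthesis genes Gclm and Gclc were not called, with log2 fold changes of -0.56 and 1.03 (DESeq2 adjusted p = 0.23 and 0.0594). Fth1, Ftl1 and Me1 were not called either, at 0.65, 0.10 and -0.92 (DESeq2 adjusted p = 0.0966, 0.715 and 0.0682). All of these uncalled genes were named after their values were seen. Of the list, 5 genes did not pass, as Hmox1 did not.

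For the first enzymes of the 2 arms, the genes with the most similar pattern over the 6 libraries were found among 12113 others whose mean was 100 normalized counts or more. Among the closest to Alas1 were Cbx6, Gne, Zbtb7b and Vamp2 (Pearson r 0.985 to 0.991 on log2 values), and closest to Hmox1 were Alcam, Ice1, Plagl1, Ermard and Pkd1 (r 0.987 to 0.995). Zbtb7b was the one called gene among these 9 (log2 fold change 0.84, DESeq2 adjusted p = 0.0392). With 6 libraries and so many genes, values of this size are a description of these libraries and carry no test.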

How the data were processed

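The authors trimmed single-end reads with Trimmomatic, aligned them with TopHat 2.0.11 to mm9 and kept uniquely mapped reads; the deposited values are HTSeq read counts of each gene, without normalization (tools and build from the submitters' processing notes and the study's methods). The gene annotation and the strand setting are not given in the sources used here. Groups and replicate numbers came from the labels, and the design text calls the libraries biological replicates.

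DESeq2 1.42.0 (R 4.3.3; the study's tool) was run on the counts with median-ratio size factors, a two-sided Wald test without covariates, and Benjamini-Hochberg adjustment with filtering tuned at 0.05, which left 16509 genes with a mean of at least 3.51. Calls needed an adjusted p below 0.05. edgeR 4.0.16 (quasi-likelihood, TMM) and limma 3.58.1 (voom) were run beside it. The scripts were tested on simulated data, where a larger share of calls was false with DESeq2 than with edgeR or limma-voom. Alternatives were other tools, scalings and filters, a replicate block, a fold change shrunken by a normal prior and leaving out each library. Wald intervals are at 95%. No 2 libraries of a group agreed within counting noise (chi-square per degree of freedom at least 10.6). Positions and exon lengths came from GENCODE on mm9. Named genes were the members, Tfrc, the other enzymes, and from each list at most the 4 called genes with the smallest adjusted p, with exceptions stated. The members and lists were chosen with earlier results of these data known. Flvcr1 and Flvcr2 were not analysed here, and some other genes and the results that need them are not reported here.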

Additional observations from a re-analysis of the deposited data

How the results depend on the processing

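With all 6 libraries, 0 members were called under every alternative except the replicate block, where 1 was higher (Alas1, log2 fold change 0.86, DESeq2 adjusted p = 0.0163) and 1 lower (Uros, -1.53, adjusted p = 9.14e-04). The deviations of same-numbered libraries had correlations of -0.0371, -0.0321 and 0.0854, and the shared numbers were therefore not read as pairs. With 3 libraries per group, these values cannot show that pairs were absent. The study describes its wild type controls as littermates, and no litter is given in the labels used here. Leaving out 1 library gave 0 to 1 members higher and 0 to 2 lower. Over all genes, edgeR called 493 higher and 428 lower and limma-voom 485 and 456, against 1277 and 1186, and leaving out 1 library gave 664 to 1531 higher and 575 to 1674 lower; the cause was not tested. Of 144 results for members, 129 kept their direction and side of the threshold, 7 gained a call and 8 changed sign. For each member, 1 of the 16 alternatives was a fold change shrunken by a normal prior. It kept the adjusted p of the main fit and so could not change side of the threshold. Among uncalled genes, signs turned for Fech with total counts (-0.055), for Blvrb with TMM, upper-quartile and total-count size factors (-0.0041, -0.042 and -0.10), for Hmox2 with edgeR, limma-voom and the same scalings (-0.0021, -0.0084, -0.011, -0.038 and -0.098) and for Blvra with limma-voom, upper-quartile and total-count scaling and the replicate block (-0.031, -0.019, -0.094 and -0.0044). Leaving out 1 library, the log2 fold change ran from -0.063 to 0.19 for Fech, -0.14 to 0.27 for Blvrb, -0.095 to 0.30 for Tfrc, -0.74 to 0.46 for Alas2, -0.075 to 0.060 for Hmox2 and -0.27 to 0.18 for Blvra. The same omissions moved the median of other breakdown genes from -0.17 to 0.12 and that of erythroid markers from -0.98 to 0.60. Counting error alone gave a single knockout library a coefficient of variation of 1.86% (Alas1) to 8.02% (Uros).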
